A study of Mus musculus with 7 samples.

Results

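The tumour necrosis factor (TNF) superfamily comprises the TNF-like ligands and their receptors, which carry signals between immune cells. Its members were taken as every gene whose symbol begins with Tnfsf or Tnfrsf, together with Tnf, Lta, Ltb, Ltbr, Cd40, Cd40lg, Cd27, Cd70 and Fasl, and without the death receptor genes Tnfrsf10b and Fas. Symbols were read through the accession of each probe, and 39 members were found among 20018 named genes on the array, with 50 probes. Of these, 34 members, 14 of 17 ligands and 20 of 22 receptors, were tested, having a probe that at least 3 of the 7 arrays read well above background. The rule itself uses no measured value apart from that filter.

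One-colour Agilent arrays read the RNA of dendritic cells that had been grown in culture from common myeloid progenitors of mice. The 3 arrays labelled knockout came from progenitors of Gata2(f/f)/ER-Cre mice, in which a tamoxifen-inducible Cre recombinase excises the floxed part of Gata2, and the 4 control arrays from Gata2(f/f) mice without Cre. Donors of both groups were on the C57BL/6 background, received tamoxifen between day 1 and day 10, and were sampled on days 20 to 22. The progenitors of both groups were cultured on bone marrow feeder cells of SJL mice with FLT3 ligand at 200 ng/ml. The sources used here do not give the promoter that drives the Cre, the age of the mice, the length of the culture or how dendritic cells were parted from feeder cells. The labels do not tie replicates to animals, and p-values then reflect only the spread between these arrays, which may be technical. In RNA of many cells together, fewer cells of a type cannot be told apart from less RNA per cell.

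Values are log2 signal relative to the 75th percentile of each array, so 0 marks that percentile and a difference of 1 is a doubling. A gene was called where the Benjamini-Hochberg adjusted p of limma, over 14551 genes, was under 0.05. Levels are compared between arrays for the same probe and never between probes. The probe of Gata2 itself read higher on the arrays labelled knockout, by 2.82 (SE 0.17, limma adjusted p = 0.000154), which goes against that label unless the probe lies outside the deleted part. Its place in the gene was not checked, so every direction below is that of the arrays as labelled. All arrays lay on 1 slide, with the arrays labelled knockout in row 1 and the controls in row 2, and only the former group carried the Cre, so row, Cre and group cannot be told apart. The arrays labelled knockout had 61.5% to 67.4% of their spots well above background and the controls 54.1% to 56.9%. The dimmest signal still well above background, the detection limit, averaged -6.65 on the former and -5.51 on the latter. A dim probe thus counted more readily on the arrays labelled knockout. All 13 dendritic cell markers (among them Flt3, Itgax, Zbtb46 and the class II genes) were well above background on some array, though Xcr1 on no control; none of the 12 tested passed, and their summed signal ran from 313 to 372 times the 75th percentile on the arrays labelled knockout and from 337 to 394 on the controls.

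Ligands of this superfamily are mostly trimeric membrane proteins, some of which are also shed or secreted, and each binds 1 or a few receptors. Receptors either recruit TRAF adaptors, which lead to NF-kB and cell survival, or carry a death domain, through which caspases can be engaged. In dendritic cells the family is known for exchange with T cells (CD40, OX40 ligand, 4-1BB ligand, CD70), for lymphoid organ structure (the lymphotoxins) and for inflammation (TNF).

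In all, 3 ligand genes rose and 1 fell on the arrays labelled knockout, and among receptors only Tnfrsf1b passed the test, downward. Tnfsf4, Ltb and Lta were higher, and Tnfsfm13 and Tnfrsf1b were lower. Thus 5 of 34 tested members passed (14.7%), where 2.87% of all tested genes did. The 3 higher members were 8.82% of those tested against 1.49% of all genes, and the 2 lower members were 5.88% against 1.38%. These counts and the next include Tnfsf4, whose probe entered the test only through the arrays labelled knockout. Among probes well above background in both groups, 2 of 33 members were higher, against 154 of 14056 genes. There 2 members and 172 genes were lower. At an unadjusted limma p under 0.05 there were 11 members (32.4%) against 13.5% of all genes, and the groups did not overlap for 12 members (35.3%) against 13.9%. The median log2 fold change was 0.01 over the tested members and -0.05 over all genes, and 25 of the 34 differed by less than 0.5.

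**Figure D1:**
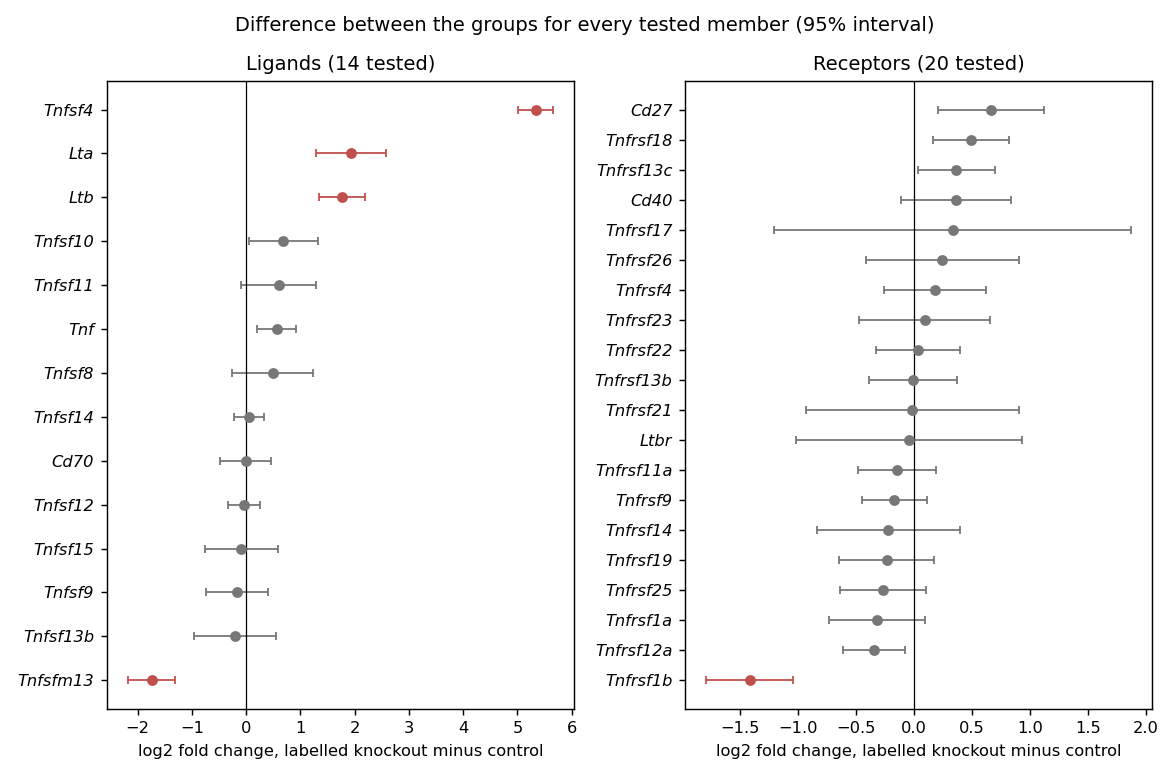
Log2 fold change (arrays labelled knockout minus controls, horizontal axis, scaled separately for each panel) of the 14 tested ligand genes and the 20 tested receptor genes, with 95% intervals of the limma fit; red marks adjusted p under 0.05. Tnfsf4, Lta and Ltb stand to the right and Tnfsfm13 and Tnfrsf1b to the left; the point for Tnfsf4 is the fitted value, not a bound.

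Among the ligands, Tnfsf4 showed the widest difference of the tested members. It encodes OX40 ligand, a costimulatory protein of antigen presenting cells that engages OX40 on activated T cells. Its probe read -2.21, -2.12 and -2.38 on the arrays labelled knockout. On the controls it read -7.66, -7.68, -7.61 and -7.35. The groups lay far apart, and the spread within each was small (SD 0.13, n = 3, and 0.15, n = 4). The probe was not well above background on any control, so it entered the test only through the arrays labelled knockout and had to differ. The level was therefore at least 9.68-fold higher, a bound that takes the dimmest signal still above background on each control in place of the probe's own. The fit gave an adjusted p of 2.61e-06 (limma), which does not test that bound. With 1 floor common to all arrays the log2 fold change was 3.09 (limma adjusted p = 7.5e-05). There every control was set to the floor, which removed the spread between controls. Since the filter had fixed the direction, neither p tests whether Tnfsf4 differed.

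The receptor of this ligand, OX40, is encoded by Tnfrsf4. It read -0.63, -1.11 and -0.996 on the arrays labelled knockout and -1.48, -0.99, -0.86 and -1.04 on the controls. The groups overlapped, and the difference of 0.18 had a 95% interval from -0.26 to 0.62 (limma adjusted p = 0.746). No test of the difference between both changes is given, since the filter had fixed the direction of Tnfsf4.

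The lymphotoxin genes rose together. Ltb encodes the membrane-bound beta chain, which anchors lymphotoxin alpha in a complex that signals through the lymphotoxin beta receptor. It read 3.72, 3.13 and 3.76 on the arrays labelled knockout and 1.88, 1.89, 1.65 and 1.66 on the controls. Every array labelled knockout was above every control, and Ltb was 3.41-fold higher (log2 fold change of 1.77, SE 0.18, limma adjusted p = 0.00162). Lta encodes lymphotoxin alpha, which is secreted alone or joined to the beta chain. It read -2.70, -3.58 and -2.99 against -4.72, -4.66, -5.15 and -5.56, again without overlap. Its 10 spots gave a 3.82-fold rise (log2 fold change 1.93, SE 0.28, limma adjusted p = 0.00871). With normexp background correction the log2 fold change of Lta was 1.18 (limma adjusted p = 0.00767). Control replicate 4, the lowest array, was the only array on which Lta was not well above background.

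Tnf, which encodes the inflammatory cytokine TNF, was also higher on every array labelled knockout but did not pass. It read 0.71, 1.18 and 0.92 against 0.44, 0.15, 0.48 and 0.42 (log2 fold change 0.56, SE 0.16, limma adjusted p = 0.134). It passed with array weights alone among the alternatives (limma adjusted p = 0.028). The 95% interval of its difference ran from 0.21 to 0.92. Lta changed more than Tnf by 1.37 log2 units and Ltb more than Tnf by 1.21 (exact permutation test, two-sided, p = 0.0286 for each, 0.0343 adjusted over 6 pairs). No split of the arrays into 3 and 4, of 35 possible, can give a smaller p. The choice of the 6 pairs came after seeing the values, so these p-values, here and below, are descriptive only. The pair of Tnfsf4 and Tnfrsf4, where the filter had fixed the direction of Tnfsf4, is counted among them but not reported. Counting it lowered the adjusted p of the other pairs that reached the smallest p. Between Lta and Ltb, the difference of the changes was 0.16 (two-sided exact permutation p = 0.514).

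**Figure D2:**
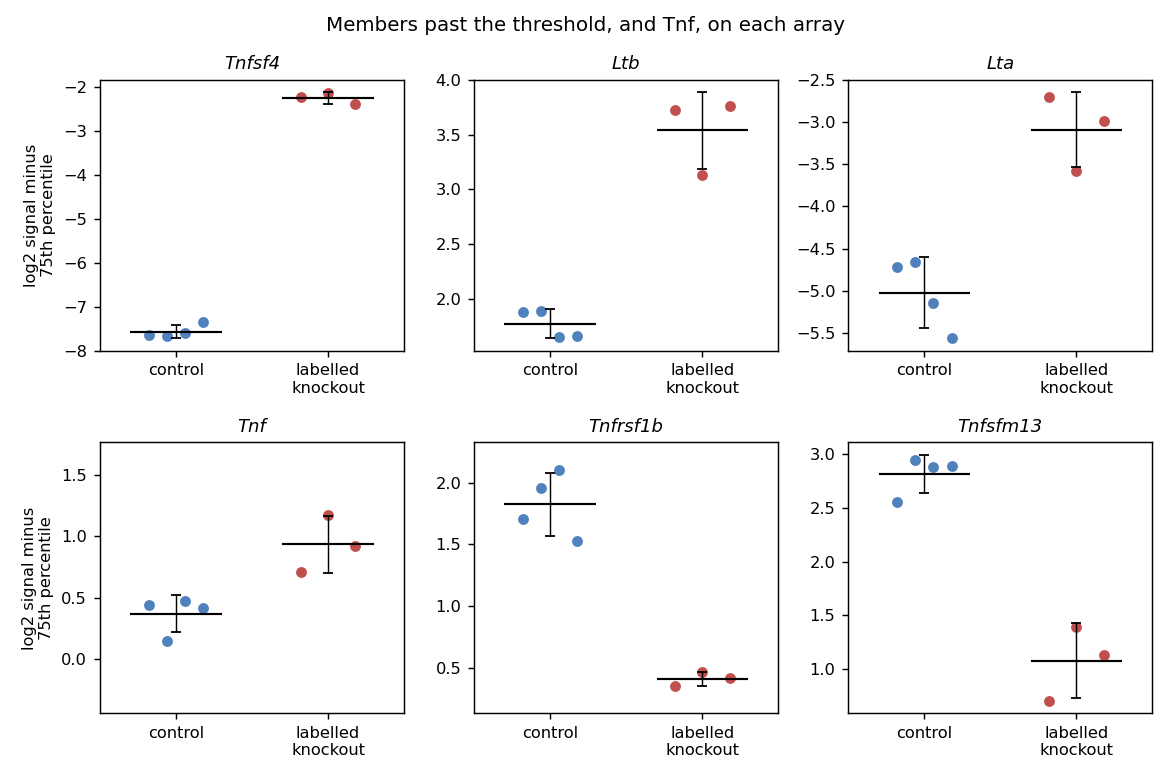
Log2 signal relative to the 75th percentile of each array (vertical axis, scaled separately for each gene) on the 4 control arrays (blue) and the 3 arrays labelled knockout (red); horizontal bars are group means and error bars 1 SD. The groups do not overlap for any of these 6 genes, of which Tnf alone did not pass the test.

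Ltb, Tnf and Lta lie next to each other in the gene order of the mouse genome, with no other protein-coding gene between them. The promoters of the 3 are shown because these neighbours were all higher on every array labelled knockout, and those of Tnfrsf1b and Tnfsfm13 because they are the members that fell. Each window covers 250 bases before and 50 after the gene's start on RefSeq's GRCm38.p6 build, 5′ to 3′ on the gene's strand. Capitals mark matches, on either strand, to the NF-kB consensus site, to TATAAA, or to a GATA site. The GATA site was searched as AGATAA and, with a last letter of G, as AGATAG, and likewise with a first letter of T as TGATAA and, again ending in G, as TGATAG. No marked matches overlapped. The NF-kB consensus replaced a single exact form of that site after the match of that form in Ltb had been seen.
Ltb, chr17:35194257-35194556, strand plus: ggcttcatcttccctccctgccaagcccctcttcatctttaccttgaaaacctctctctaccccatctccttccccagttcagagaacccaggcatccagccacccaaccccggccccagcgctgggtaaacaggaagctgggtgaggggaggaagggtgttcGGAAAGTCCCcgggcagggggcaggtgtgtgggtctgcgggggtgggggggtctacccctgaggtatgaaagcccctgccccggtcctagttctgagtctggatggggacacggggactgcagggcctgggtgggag
Tnf, chr17:35201958-35202257, strand minus: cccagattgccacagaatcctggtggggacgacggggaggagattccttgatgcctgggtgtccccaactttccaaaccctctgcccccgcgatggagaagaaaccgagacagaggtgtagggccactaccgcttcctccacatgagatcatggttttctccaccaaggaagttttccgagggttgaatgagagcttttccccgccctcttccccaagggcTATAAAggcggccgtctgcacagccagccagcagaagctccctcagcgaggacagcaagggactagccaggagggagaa
Lta, chr17:35205302-35205601, strand minus: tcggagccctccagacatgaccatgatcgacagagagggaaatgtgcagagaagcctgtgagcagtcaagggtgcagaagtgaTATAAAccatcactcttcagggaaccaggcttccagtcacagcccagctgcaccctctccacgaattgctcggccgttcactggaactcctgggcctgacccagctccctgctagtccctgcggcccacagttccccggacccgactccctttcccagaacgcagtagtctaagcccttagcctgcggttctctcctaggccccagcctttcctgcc
Tnfrsf1b, chr4:145246821-145247120, strand minus: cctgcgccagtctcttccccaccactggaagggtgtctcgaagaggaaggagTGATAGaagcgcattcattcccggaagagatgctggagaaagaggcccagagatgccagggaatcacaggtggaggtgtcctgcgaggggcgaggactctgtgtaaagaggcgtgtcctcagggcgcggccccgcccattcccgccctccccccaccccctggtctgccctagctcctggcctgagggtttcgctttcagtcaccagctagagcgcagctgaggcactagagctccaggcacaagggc
Tnfsfm13, chr11:69696049-69696348, strand minus: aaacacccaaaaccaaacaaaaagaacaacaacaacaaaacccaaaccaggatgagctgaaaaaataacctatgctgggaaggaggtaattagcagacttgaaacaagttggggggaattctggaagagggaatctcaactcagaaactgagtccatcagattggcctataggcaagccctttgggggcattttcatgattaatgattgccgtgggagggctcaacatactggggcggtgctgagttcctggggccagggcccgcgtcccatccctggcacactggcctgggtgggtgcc
Ltb held a match to the NF-kB consensus 87 bases before the start. Such a match was in 8.46% of 32851 promoters of this length and in 4 of the 34 promoters found for 30 members (11.8%), those of Ltb, Tnfrsf25, Tnfrsf8 and Tnfrsf9. Tnf held TATAAA 29 bases and Lta 167 bases before the start, a sequence of 13.6% of all promoters and of 6 of the 34. Tnfrsf1b held TGATAG 198 bases before the start, and a GATA form was in 29.8% of all promoters and in 7 of the 34 (20.6%). Tnfsfm13 held none of these sequences. These are matches of letters only.

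The receptor shared by the lymphotoxin complex is encoded by Ltbr, which read 3.04, 1.54 and 2.93 on the arrays labelled knockout and 2.08, 3.25, 2.72 and 2.13 on the controls. Replicate 2 labelled knockout was the lowest of the 7 arrays, the groups overlapped widely, and the difference of -0.04 had a 95% interval from -1.01 to 0.93 (limma adjusted p = 0.979). The change of Ltb exceeded that of Ltbr by 1.81 (two-sided exact permutation p = 0.0286, 0.0343 adjusted over the 6 pairs). Tnfrsf14, which encodes the receptor HVEM of LIGHT and lymphotoxin alpha, read -3.27, -3.25 and -3.53 against -3.37, -2.44, -3.63 and -3.06. Its groups overlapped too (log2 fold change -0.22, 95% interval -0.84 to 0.39, limma adjusted p = 0.783), as did those of Tnfsf14, the gene of LIGHT (0.06, SE 0.12, limma adjusted p = 0.887).

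Some markers of other cells also differed between the groups, where 1.49% of all tested genes rose and 1.38% fell. The summed signal of 13 T cell markers ran from 9.90 to 11.5 times the 75th percentile on the arrays labelled knockout and from 6.07 to 7.50 on the controls. Cd247 and Bcl11b, defining genes of that list, stayed in the background on all arrays, and 1 of the 11 tested markers rose, Lck (3.07-fold, limma adjusted p = 0.000235). Its log2 fold change of 1.62 was the largest of the list, where 9 of the 11 lay above 0 and 2 below. Cd3d, Cd3e, Cd4 and Cd8a had log2 fold changes of 0.01, -0.05, 0.05 and -0.20. The markers did not all go 1 way. Of 12 natural killer and innate lymphoid markers, 4 of the 10 tested rose (Gzma, Il2rb, Nkg7 and Eomes), while the receptor gene Ncr1 stayed in the background throughout. In the same list Gzmb, Klrk1 and Klrd1 were lower on every array labelled knockout and did not pass, with log2 fold changes of -2.39, -0.67 and -0.58 (limma adjusted p = 0.234, 0.134 and 0.286). The summed signal of that list overlapped between groups, at 28.2 to 31.7 against 24.9 to 38.2. None of 8 tested B cell markers passed, with sums of 15.8 to 19.9 against 16.1 to 22.1. Ms4a1, Pax5 and Ebf1 were not well above background on any control, where the detection limit was higher. The part of these cells in the rise of Tnfsf4, Ltb and Lta was not tested.

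Tnfrsf1b, which encodes TNF receptor 2, a receptor that binds TRAF proteins and has no death domain, was 2.67-fold lower on the arrays labelled knockout. It read 0.35, 0.46 and 0.41 there and 1.71, 1.96, 2.10 and 1.53 on the controls (log2 fold change -1.42, SE 0.16, limma adjusted p = 0.00279). All 3 arrays labelled knockout were below all 4 controls and differed little from each other (SD 0.06, n = 3). TNF receptor 1, which carries a death domain and is encoded by Tnfrsf1a, read 3.57, 3.01 and 3.29 against 3.52, 3.73, 3.83 and 3.36. These groups overlapped (log2 fold change -0.32, 95% interval -0.74 to 0.10, limma adjusted p = 0.505), and its other probe gave a like difference (-0.27). Tnfrsf1b fell by 1.09 more than Tnfrsf1a on the log2 scale (two-sided exact permutation p = 0.0286, 0.0343 adjusted over the 6 pairs).

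Myeloid markers fell on the same arrays, where 1.38% of all tested genes fell. Of 9 tested monocyte and macrophage markers, 6 fell and none rose, and the summed signal of the 11 on the array ran from 45.6 to 56.4 against 76.4 to 92.3, with Mertk in the background on all 3 arrays labelled knockout. Of 9 mast cell and basophil markers, 6 fell, with sums of 8.03 to 10.9 against 19.0 to 30.7, and Ms4a2 was in the background on the same 3 arrays. Among 8 plasmacytoid dendritic cell markers, Klk1 fell and the sums overlapped (154 to 186 against 170 to 206). Stromal and endothelial markers had sums of 3.82 to 4.96 against 3.20 to 3.70. Col1a1, Pdgfra, Cxcl12 and Dcn stayed in the background on all 7 arrays. Vcam1 was in the background on all 3 arrays labelled knockout but not on every control. None of 7 tested passed, with 4 above 0 and 3 below. The largest rise was that of Pdgfrb, with means of 1.06 and 0.37 (limma adjusted p = 0.301). The part of these cells in the fall of Tnfrsf1b and Tnfsfm13 was not tested.

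Tnfsfm13 is the readthrough gene that joins Tnfsf12, which encodes TWEAK, to Tnfsf13, which encodes APRIL, a survival factor of plasma cells. Its brighter probe read 0.70, 1.39 and 1.13 on the arrays labelled knockout and 2.56, 2.95, 2.88 and 2.89 on the controls. The groups did not overlap, and the level was 3.34-fold lower (log2 fold change -1.74, SE 0.19, limma adjusted p = 0.00217). Its dimmer probe had a difference of -0.55 that did not pass in a fit over all probes (limma adjusted p = 0.388). No probe carried an accession of Tnfsf13 alone, and the sources used here do not say which of these transcripts the Tnfsfm13 probes detect. Tnfsf12 was read by a probe with a difference of -0.04 (SE 0.13, limma adjusted p = 0.927) and by a dimmer one with -1.37, which did not overlap between groups but did not pass over all probes (limma adjusted p = 0.0925).

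The receptors of APRIL and TWEAK did not pass. Tnfrsf13b, which encodes TACI, read -3.29, -3.09 and -3.25 against -3.25, -3.33, -3.39 and -2.83 (log2 fold change -0.01, 95% interval -0.39 to 0.37, limma adjusted p = 0.989). A dimmer probe of Tnfrsf13b differed by -0.42, with overlap, and did not pass in the fit over all probes (limma adjusted p = 0.473). Tnfrsf17, which encodes BCMA, read -3.66, -6.62 and -4.76 against -5.19, -4.75, -6.40 and -5.05. That range was the widest among the receptors named here, and its interval from -1.21 to 1.87 is correspondingly broad (limma adjusted p = 0.882). Tnfrsf12a, the TWEAK receptor Fn14, read 1.79, 1.78 and 1.69 against 2.18, 2.14, 2.01 and 2.06. Its groups were apart by a small margin (log2 fold change -0.34, SE 0.12, limma adjusted p = 0.221). It passed with array weights alone among the alternatives (limma adjusted p = 0.0353).

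**Figure D3:**
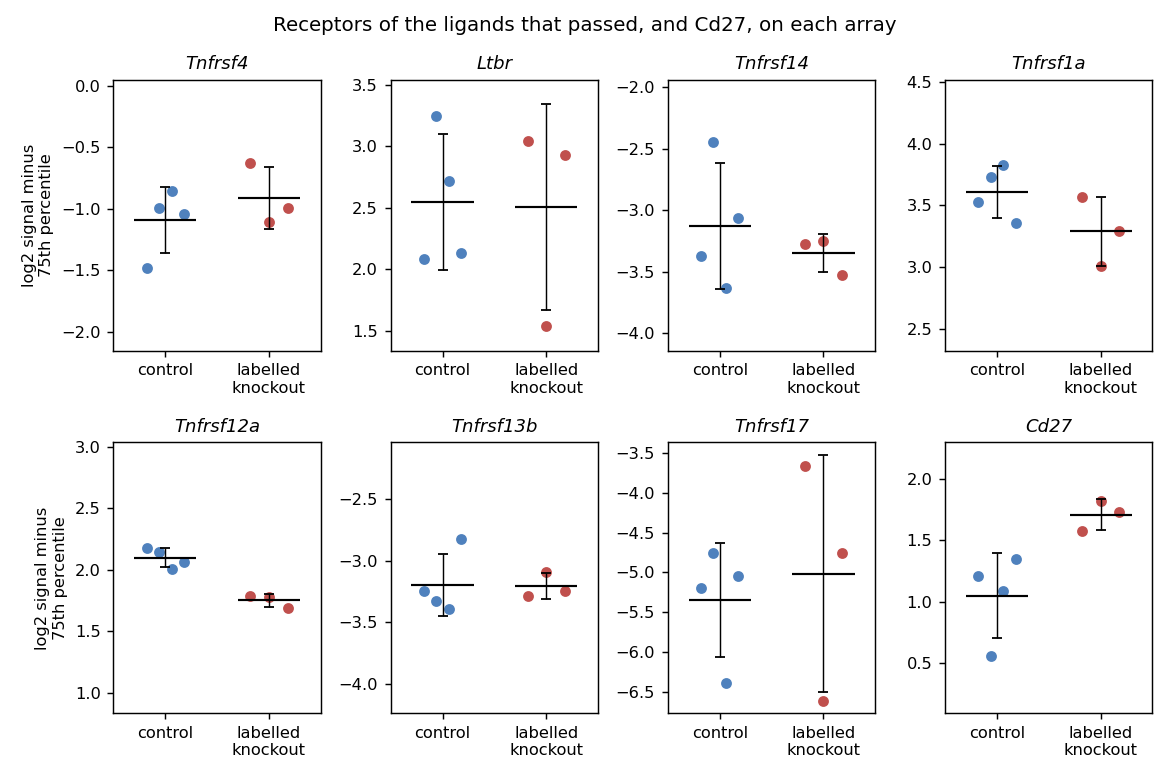
Log2 signal relative to the 75th percentile of each array (vertical axis, scaled separately for each gene) on the 4 control arrays (blue) and the 3 arrays labelled knockout (red). Shown are receptors of the ligands that passed, the TWEAK receptor Tnfrsf12a, whose ligand gene Tnfsf12 did not pass, and Cd27. Horizontal bars are group means and error bars 1 SD. Groups overlap except for Tnfrsf12a and Cd27, neither of which passed the test.

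The other ligands of T cell and dendritic cell exchange did not pass. Tnfsf9 (4-1BB ligand), Cd70 (ligand of CD27), Tnfsf8 (CD30 ligand) and Tnfsf15 (TL1A) had log2 fold changes of -0.17, -0.01, 0.49 and -0.09, and their groups overlapped. Cd70 exceeded background on every array labelled knockout and on 1 of 4 controls. Its mean was -5.65 in both groups, and the detection limit was higher on the controls. Tnfsf10, which encodes the death ligand TRAIL, read -0.30, -0.68 and -0.82 against -1.42, -0.85, -0.93 and -1.93 (log2 fold change 0.69, SE 0.28, limma adjusted p = 0.324). The groups were just apart, replicate 3 labelled knockout lying close to control replicate 2. Tnfsf11, the osteoclast factor RANKL that dendritic cells also answer to, differed by 0.60 (SE 0.30, limma adjusted p = 0.445), and Tnfsf13b, the B cell factor BAFF, by -0.21 (SE 0.33, limma adjusted p = 0.842).

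Among receptors that bind TRAF proteins, Cd27, a costimulatory receptor of T cells and of lymphoid progenitors, read 1.58, 1.82 and 1.73 on the arrays labelled knockout and 1.21, 0.56, 1.08 and 1.34 on the controls. It was higher on every array labelled knockout (log2 fold change 0.66, SE 0.20, limma adjusted p = 0.168). Its other probe differed by 0.68. Tnfrsf18, which encodes GITR, read 1.96, 1.60 and 1.69 against 1.21, 1.44, 1.15 and 1.24, likewise without overlap (log2 fold change 0.49, SE 0.14, limma adjusted p = 0.149). Both passed with array weights alone among the alternatives (limma adjusted p = 0.0351 and 0.0229). Tnfrsf13c, the BAFF receptor of B cells, was apart between groups with a difference of 0.37 (SE 0.14, limma adjusted p = 0.311). Its dimmer probe, well above background on only 1 control, was also apart, with a difference of 0.77. That probe did not pass in the fit over all probes (limma adjusted p = 0.181).

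Cd40, through which T cells license dendritic cells, read 1.02, 0.30 and 0.70 against 0.11, 0.60, 0.40 and 0.13, with overlap (log2 fold change 0.36, 95% interval -0.11 to 0.84, limma adjusted p = 0.505). Tnfrsf11a, the receptor RANK, differed by -0.15 (SE 0.15) and Tnfrsf19 by -0.23 (SE 0.18). Tnfrsf9, which encodes 4-1BB, was read by 2 probes. The brighter gave 5.03, 5.02 and 4.84 against 5.03, 5.09, 5.23 and 5.18 (log2 fold change -0.17, SE 0.12, limma adjusted p = 0.612). The dimmer exceeded background on no control and on all 3 arrays labelled knockout, where it was at least 1.10-fold higher. That probe entered the test only through the arrays where it is high, so its direction is no sign that the probes disagree.

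The remaining death domain receptors, Tnfrsf21 (DR6) and Tnfrsf25 (DR3, the receptor of TL1A), differed by -0.01 (SE 0.40) and -0.27 (SE 0.16). Tnfrsf21 read 0.30, 1.89 and 0.70 against 1.06, 0.28, 1.32 and 1.24, with replicate 2 labelled knockout the highest array. Tnfrsf22 and Tnfrsf23, decoy receptors of TRAIL, differed by 0.04 (SE 0.16) and 0.09 (SE 0.24), and their neighbour Tnfrsf26 by 0.24 (SE 0.29). None of the 5 passed, with limma adjusted p from 0.538 to 0.992.

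Of the 39 members, 5 were not tested because their probes were well above background on fewer than 3 arrays. Tnfsf18 (GITR ligand) was in the background on all 7 arrays. Fasl (ligand of the death receptor Fas) was well above background on 1 array labelled knockout and on no control, and Tnfrsf8 (CD30) and Tnfrsf11b (the RANKL decoy osteoprotegerin) on 2 and none. The detection limit was higher on the controls, so these counts are not differences in level. Cd40lg, the ligand that T cells display to CD40, read -2.36 on control replicate 2 and between -8.89 and -5.35 on the other 6 arrays, and was well above background on that control alone. Without the filter on dim probes, the difference of Tnfsf18 was called downward, between values that lie in the background of both groups.

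Besides Ltb, Tnf and Lta, members formed 7 further groups of direct neighbours among protein-coding genes. Tnfsf4 was at least 9.68-fold higher, while its neighbours Tnfsf18 and Fasl were well above background on 0 and 1 of the 7 arrays. Tnfrsf1b was lower, and its neighbour Tnfrsf8 was well above background on too few arrays to be tested. Tnfsfm13 was lower by its brighter probe; of its neighbours, Tnfsf12 did not pass and Tnfsf13 had no probe of its own. In the group of Tnfsf9, Cd70 and Tnfsf14, in that of Tnfsf15 and Tnfsf8, in that of Tnfrsf4 and Tnfrsf18, and in that of Tnfrsf26, Tnfrsf22 and Tnfrsf23, no member passed.

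In the lists of genes that carry the signal onward, no gene passed. Over all tested genes 2.87% passed, and 13.5% had an unadjusted limma p under 0.05. At the former share, lists of this length can hold no called gene. None of the 28 genes for TRAF adaptors, NF-kB subunits and their regulators passed (limma, 1 at an unadjusted p under 0.05), with a median log2 fold change of 0.02 and a range from -0.38 to 0.41. The single gene at that unadjusted level was Traf5, an adaptor of OX40 and CD27 among others (log2 fold change -0.38, SE 0.17, limma adjusted p = 0.367), which passed with array weights. None of the 14 death receptor signalling genes passed (limma, 0 at an unadjusted p under 0.05), with a median of -0.10 and a range from -0.30 to 0.49.

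Where 1.38% of all tested genes fell, so did 1 of 8 genes for ligand shedding and control of Tnf mRNA, Timp3. It encodes an inhibitor of the proteases that release TNF from the cell surface, and read -2.39, -2.49 and -2.42 on the arrays labelled knockout against -0.87, -0.70, -1.07 and -1.48 on the controls. The groups did not overlap, and Timp3 was 2.65-fold lower (log2 fold change -1.40, SE 0.19, limma adjusted p = 0.0068). The list's median was -0.33, with 7 of the 8 genes below 0. Over all tested genes the median was -0.05, with 8431 of 14551 below 0. Zfp36, which encodes a protein that destabilises Tnf mRNA, read 0.10, -0.72 and -1.13 against 0.21, 0.95, 0.54 and -0.37, with overlap (log2 fold change -0.92, SE 0.37, limma adjusted p = 0.322).

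**Figure D4:**
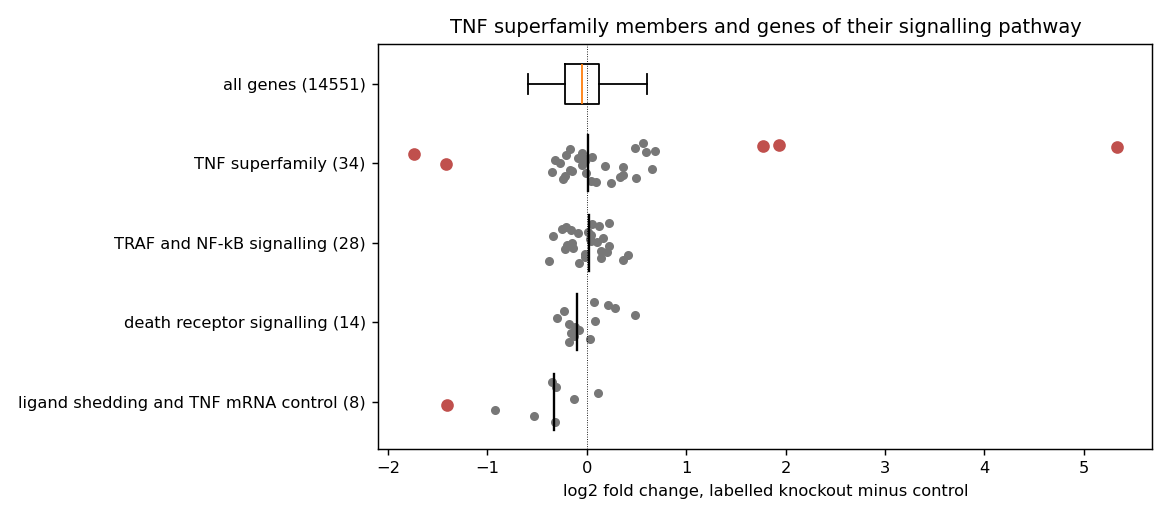
Log2 fold change (arrays labelled knockout minus controls, horizontal axis) of the 34 tested members and of 3 lists of pathway genes, each point a gene, red where limma adjusted p was under 0.05 and black bars marking medians; the box shows the middle of all 14551 genes with whiskers at the 5th and 95th percentiles. The 28 TRAF and NF-kB genes and the 14 death receptor signalling genes all lie within 0.5 of 0, while the TNF superfamily reaches down to -1.74 for Tnfsfm13 and up to the point of Tnfsf4, a fitted value against controls in the background, where the bound is 9.68-fold.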

How the data were processed

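Spot intensity as deposited by the authors had been extracted and background-corrected per the file headers, which name version 10.7.3.1 of Agilent's Feature Extraction. From the 62976 spots of each array, the processed signal was taken on the log2 scale relative to the 75th percentile of each array's non-control spots; spots marked as outliers were dropped and the rest averaged per probe. Of 55681 probes, 34133 were well above background on at least 3 arrays, where at least 50% of a probe's spots had to be. The files as used here held no gene names, so RefSeq accessions, which named 26413 probes, were matched to GRCm38.p6; the array design uses an older build. Each gene was read from its tested probe with the highest mean. Groups were compared with limma (lmFit, eBayes; version 3.58.1, R 4.3.3), with no blocking, after testing on simulated data. A deposited table by the authors holds log2 values centred per probe, as found by comparison with the scanner values, since its scale, centring and direction are not stated; column medians were 0 except -0.02 for replicate 3 labelled knockout. It served as an alternative, beside others for background, normalization, filters, floors, probe choice, variance model, threshold, the leaving out of each array and a replicate block.

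Members and lists were chosen with earlier results of these data known. Members named singly are those that passed, those that changed by at least 1 on the log2 scale, their partners, and Tnf with its receptors; others were named after their values were seen, and the part of the rule on levels was not used, since probes were not compared. Arrays correlated between 0.986 and 0.992 within groups across genes. Their number limits the precision.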

Additional observations from a re-analysis of the deposited data

Results flagged for a closer look

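Among the 4 control arrays, 1 array stood away from the other 3 for 2 of the 35 genes checked, where chance marks about 5% of groups. For Tnf, control replicate 2 read 0.15 and the other controls between 0.42 and 0.48. For Tnfsf12, control replicate 4 read -1.95 and the others between -2.25 and -2.21. The group of 3 arrays was too small for this check.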

How the results depend on the processing

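Over 25 alternatives the calls of Ltb, Tnfrsf1b and Tnfsfm13 held, and no called value of the 34 members or Timp3 changed sign. Tnfsf4 was called in the 23 alternatives that tested it, but under the main filter its direction was fixed in advance. Alternatives that required signal above background in the controls did not test it. Of 869 values of single genes, 864 kept their side of the threshold; 53 values of genes that did not pass changed sign below it. With probes well above background on all arrays, 1 member was higher, since Tnfsf4 and Lta were no longer tested. With array weights 6 members were higher, and 1 TRAF and NF-kB gene and 3 shedding and mRNA control genes were lower. Samples of the same replicate number did not deviate together (correlations -0.10, -0.17 and -0.05 for numbers 1, 2 and 3), so they share only a number; with the replicate block 2 members were higher and 2 lower, over 86 higher and 95 lower genes, and Lta, whose fit then draws nothing from control replicate 4, which has no partner, had a log2 fold change of 1.75 (adjusted p = 0.0612). Without any single array, tested on the same genes, 3 members were higher and 2 lower, and the adjusted p of Lta lay between 0.0119 and 0.0498. The log2 fold change of Tnfsf4 lay between 3.04 and 5.83, the lowest with normexp correction. Naming by a gene name column was not run, since the files as used here held none. Over all genes, the counts moved most without a filter (365 higher, 2483 lower) and with array weights (699 and 822). Dim signals limit Tnfsf4, Lta, Tnfrsf17, Tnfrsf19 and Cd70, the 5 tested members not well above background on all arrays.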
